A study of Mus musculus with 10 samples.

Results

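The genes of glucose breakdown and lactate handling were followed in mouse inguinal white fat, which lies under the skin, with and without Tcf7l2 in fat cells. The 10 genes were listed by name: Hk2, Pfkl, Pfkp, Aldoa, Tpi1, Eno1, Pkm, Ldha, Ldhb and Slc16a3. All 10 were found by symbol among the 52636 gene identifiers of the count table, and all 10 passed the filter on low counts. In the knockout, Aldoa, Tpi1, Pkm, Ldha and Pfkl were higher by between 22.6% and 38.2%, Ldhb was lower by 37.4%, and Hk2, Pfkp, Eno1 and Slc16a3 did not pass the test.

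Total RNA was sequenced in 10 libraries from C57BL/6 mice of 6 months on a 65% high-fat diet, whose length the labels give as 16 weeks, 12 weeks or 4 months. The 5 control libraries came from TCF7L2F/F mice, which carry floxed alleles and no Cre, although their genotype label reads wild type. The 5 knockout libraries came from TCF7L2F/F; Adp-Cre mice, labelled as an adipose knockout of Tcf7l2. The labels do not spell out the promoter of Adp-Cre, and do not say that each library came from a separate mouse, so a p-value here reflects only how much the libraries of a group vary. Whole tissue was used, so cells without Cre kept the gene, and fewer cells of a type cannot be told apart from less RNA per cell.

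Libraries held 14032866 to 17782073 counts. The unit used below is CPM, the count scaled to a common library size with TMM factors, in which 3 counts were worth 0.172 to 0.205 depending on the library. Tcf7l2 was between 9.16 and 11.4 CPM in the controls and between 5.57 and 6.20 CPM in the knockouts, so every library followed its label (log2 fold change -0.87, SE 0.0962, adjusted p = 6.1e-04, edgeR). The fat markers Adipoq, Plin1 and Fabp4 were abundant in both groups, with means of 2989 and 2976 CPM for Adipoq in control and knockout. Of 10 fat cell markers, 1 was called higher (Lep), 2 lower (Retn and Cfd) and 7 did not pass, with 7 of the 10 log2 fold changes below 0. Over all tested genes 5.84% were called higher and 7.05% lower. The 10 markers summed to between 23499 and 29841 CPM in the controls and between 25452 and 34435 CPM in the knockouts. Control libraries were numbered 1 to 5 and knockout libraries 6 to 10, so genotype cannot be told apart from handling that followed this order. All p-values below are two-sided, from edgeR's quasi-likelihood test, and were adjusted over all 15927 tested genes.

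Glycolysis turns glucose into pyruvate in the cytosol. Hexokinases trap glucose in the cell, phosphofructokinase commits it to breakdown, aldolase splits the hexose, and pyruvate kinase makes pyruvate at the last step. Lactate dehydrogenase converts pyruvate to lactate and back, and monocarboxylate carriers move lactate across the membrane. White fat cells take up glucose in response to insulin, use it to make the glycerol backbone of stored fat, and release a large part of it as lactate.

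Of the 10 genes, 5 were called higher and 1 lower at an adjusted p below 0.05, against 5.84% higher and 7.05% lower over all tested genes. Ranges of CPM did not overlap between groups for 4 of them, Aldoa, Pkm and Ldha above the controls and Ldhb below, against 4.55% and 4.45% of tested genes in these directions. The median log2 fold change of the 10 was 0.26, beside 0.00018 over all tested genes. The genes were chosen with earlier results of these data known, so these counts describe them and were not tested as a set. DESeq2 called 6 of the 10 higher and 1 lower, against 8.31% and 7.42% of the genes to which it gave an adjusted p. With limma-voom 4 were higher and 1 lower, against 4.8% and 5.53%. With edgeR and 1 library removed, the higher genes numbered 1, 1, 4, 1 and 5 without control 1 to 5, against 1.43, 1.41, 4.54, 2.41 and 8.57% of the genes tested in each fit. They numbered 6, 2, 4, 5 and 2 without knockout 1 to 5, against 6.97, 2.92, 4.37, 5.15 and 2.41%. The CPM of the 10 summed to between 3480 and 3864 in the controls and between 4015 and 5129 in the knockouts.

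**Figure D1:**
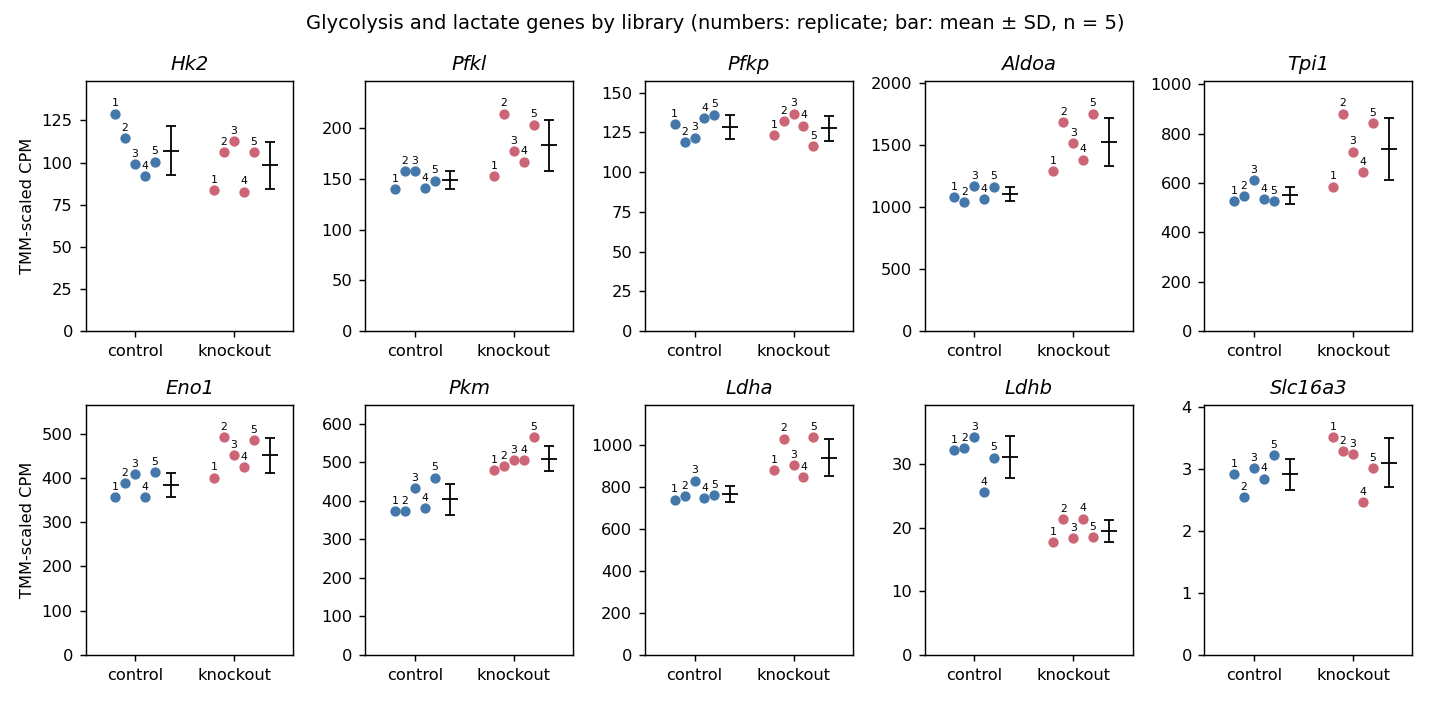
TMM-scaled CPM of each of the 10 genes in the 5 control (blue) and 5 knockout (red) libraries, each point a library with its replicate number, with the mean and SD as a bar. Aldoa, Pkm and Ldha sit above all controls in every knockout library, and Ldhb sits below all controls, at 17.7 to 21.4 against 25.6 to 34.2 CPM.

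Levels of different genes were compared per kilobase of exon (CPM per kb, over the union of annotated exons, which understates genes with long alternative exons). In the controls, Aldoa was highest at 379 ± 20.0 CPM per kb (mean ± SD, n = 5), followed by Ldha at 232 ± 11.0 and Tpi1 at 200 ± 12.8. Pkm at 80.8 ± 8.04 and Eno1 at 71.5 ± 5.10 came next, and their control ranges overlapped. Pfkl at 22.3 (CV 5.83%), Ldhb at 19.8 (CV 10.6%) and Hk2 at 17.9 (CV 13.7%) lay close together, and their ranges overlapped from each to the next. Pfkp stood at 9.57 ± 0.565 CPM per kb and Slc16a3 at 0.547 ± 0.0466, the lowest. In the knockouts the order was kept but for Hk2, at 16.5 ± 2.34, and Ldhb, at 12.4 ± 1.13 CPM per kb. There Ldhb was above Hk2 in 0 libraries and their ranges did not overlap, while Ldhb was above Hk2 in 4 of the control libraries.

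Among the 10 genes, those of the early steps, Hk2, Pfkl and Pfkp, differed little or variably between the groups. Hk2, the hexokinase of insulin-responsive tissues (ENSMUSG00000000628, GRCm38 chromosome 6, 82725025 to 82774454, minus strand), had 129, 115, 99.1, 92.1 and 101 CPM in the control libraries, in the order of their replicate numbers. The knockout libraries, in the same order as for every gene below, had 83.9, 106, 113, 82.8 and 106 CPM. The groups overlapped, and the log2 fold change of -0.12 had a 95% interval from -0.36 to 0.11 (SE 0.109, adjusted p = 0.47). Of the phosphofructokinase genes, Pfkl encodes the liver-type subunit (ENSMUSG00000020277, chromosome 10, 77986947 to 78010083, minus strand). It had 140, 158, 158, 141 and 148 CPM in the controls and 153, 214, 178, 167 and 203 CPM in the knockouts. Knockouts 2 and 5 were highest, and knockout 1 lay inside the control range. Pfkl rose by 0.30 on the log2 scale (SE 0.0891, adjusted p = 0.047), a call that was held in only 2 of 10 fits that left out 1 library, those without knockout 1 or knockout 4 (adjusted p up to 0.122).

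Pfkp, the platelet-type phosphofructokinase subunit (ENSMUSG00000021196, chromosome 13, 6579768 to 6648777, minus strand), had 130, 119, 122, 134 and 136 CPM in the controls. In the knockouts it had 123, 132, 137, 129 and 117 CPM, within almost the same range. Its log2 fold change was -0.01, with a 95% interval from -0.14 to 0.13 (adjusted p = 0.95). Among 3 phosphofructokinase genes, Pfkl held 58.5% ± 2.88 of the CPM per kb in the controls and 63.8% ± 4.66 in the knockouts (n = 5 each), with overlapping ranges of 54.6 to 62.3% and 58.2 to 68.7%. Among the hexokinase genes Hk1, Hk2 and Hk3, Hk2 held 63.6% ± 3.45 and 62.5% ± 5.10, so the make-up of both families overlapped between the groups.

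The largest rise among the 10 genes was in Aldoa, which encodes the main aldolase of most tissues (ENSMUSG00000030695, chromosome 7, 126795234 to 126800751, minus strand). It had 1078, 1041, 1165, 1064 and 1163 CPM in the controls and 1290, 1682, 1514, 1380 and 1750 CPM in the knockouts. The lowest knockout, library 1, was above the highest control, and the spread was wider in the knockouts (CV 12.8% against 5.27%). The log2 fold change was 0.47 (SE 0.0891, adjusted p = 0.011), and the call was held whichever library was left out (adjusted p up to 0.041). The annotation holds a second identifier with the symbol Aldoa, ENSMUSG00000114515, just upstream on the same strand (126800790 to 126809108), which had between 0 and 4 counts per library and was not tested.

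Tpi1, for the isomerase that interconverts the triose phosphates (ENSMUSG00000023456, chromosome 6, 124810586 to 124814296, minus strand), had 528, 547, 611, 536 and 526 CPM in the controls. In the knockouts it had 585, 881, 727, 645 and 843 CPM, again highest in libraries 2 and 5, and knockout 1 lay below control 3. The log2 fold change was 0.42 (SE 0.107, adjusted p = 0.026). Eno1, the enolase gene of most tissues (ENSMUSG00000063524, chromosome 4, 150236721 to 150248879, plus strand), had 356, 388, 408, 357 and 414 CPM in the controls and 401, 492, 452, 425 and 486 CPM in the knockouts. Only knockout 1 fell inside the control range. Eno1 did not pass (log2 fold change 0.23, 95% interval 0.07 to 0.39, adjusted p = 0.062). DESeq2 gave it an adjusted p of 0.022, and edgeR without control 5 or without knockout 1 called it as well (adjusted p = 0.040 and 0.030).

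Pkm encodes the muscle-type pyruvate kinase in alternative splice forms that counts per gene do not separate (ENSMUSG00000032294, chromosome 9, 59656368 to 59679375, plus strand). It had 373, 373, 434, 381 and 460 CPM in the controls and 479, 491, 506, 506 and 565 CPM in the knockouts. Controls 3 and 5 were the highest controls and knockout 1 the lowest knockout, and the groups did not overlap. Pkm rose by 0.33 on the log2 scale (SE 0.0774, adjusted p = 0.021). Another annotated gene on the same strand covers 15.3% of its exonic bases, so the count of Pkm is uncertain by what the counting did with shared reads.

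Of these calls, those of Tpi1 and Ldha ended when control 1, 2 or 4 or knockout 2 or 5 was removed, with adjusted p of at most 0.075 and 0.076. The call of Pkm did not survive the removal of control 1, 2 or 4, with an adjusted p of at most 0.064.

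The genes of lactate dehydrogenase moved in opposite directions. The subunits encoded by Ldha and Ldhb assemble in mixed enzymes, and Ldha-rich forms are classically linked with making lactate from pyruvate and Ldhb-rich forms with its use. Ldha (ENSMUSG00000063229, chromosome 7, 46841475 to 46855627, plus strand) had 739, 756, 830, 747 and 760 CPM in the controls and 879, 1031, 903, 847 and 1036 CPM in the knockouts. Every knockout exceeded every control, and the log2 fold change was 0.29 (SE 0.0745, adjusted p = 0.026). Ldhb (ENSMUSG00000030246, chromosome 6, 142490249 to 142507957, minus strand) had 32.3, 32.5, 34.2, 25.6 and 31.1 CPM in the controls and 17.7, 21.3, 18.4, 21.4 and 18.6 CPM in the knockouts. The groups were well apart, and control 4 was the lowest control. Ldhb fell by 0.68 on the log2 scale (SE 0.0886, adjusted p = 0.0017), on between 271 and 557 counts per library, and this call was held in all 10 fits that left out 1 library (adjusted p up to 0.0075).

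Per kilobase of exon, Ldhb made up between 6.75 and 8.42% of the summed level of Ldha and Ldhb in the controls, with a mean of 7.88% ± 0.669 (SD, n = 5). Its share was 4.07, 4.18, 4.12, 5.06 and 3.64% in the knockouts, with a mean of 4.21% ± 0.521. The lowest control share was above the highest knockout share. Put as a ratio of CPM per kb, Ldha exceeded Ldhb 11.8 ± 1.19 times in the controls and 23.0 ± 2.77 times in the knockouts (mean ± SD, n = 5 each). No p is given for this ratio, since both genes were chosen with their changes known.

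**Figure D2:**
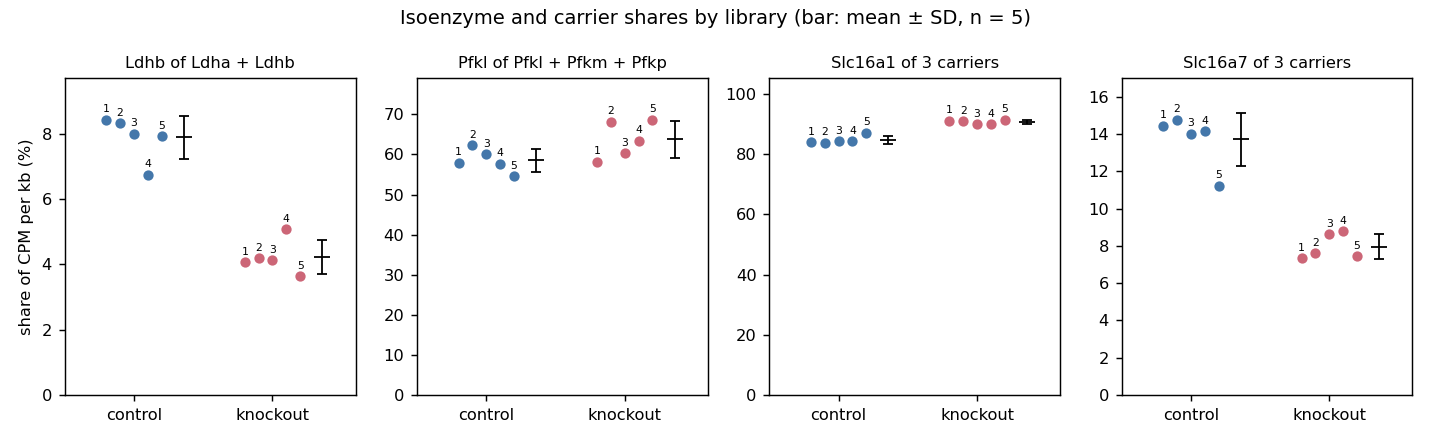
Share of CPM per kb, in percent, that a gene held within its family in each library, with mean and SD as a bar (control blue, knockout red, 5 libraries each). The carriers are Slc16a1, Slc16a3 and Slc16a7. The Ldhb share lies between 6.75 and 8.42% in controls and between 3.64 and 5.06% in knockouts, while the ranges of Pfkl overlap.

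Promoter sequences of Ldha, Ldhb and Aldoa are shown because these genes had the opposite changes within lactate dehydrogenase and the largest rise among the 10. They are RefSeq windows on GRCm38.p6 that run from 250 bases before an annotated start to 50 bases after it, written on the strand of the gene. Capitals mark the letters ACGTG (core of the hypoxia response element), CACGTG (E-box, which contains it) or CTTTGA (core of the TCF/LEF site), each searched on both strands. The windows are chr7:46845554-46845853 on the plus strand for Ldha, chr6:142507908-142508207 on the minus strand for Ldhb and chr7:126799205-126799504 on the minus strand for Aldoa.
Ldha: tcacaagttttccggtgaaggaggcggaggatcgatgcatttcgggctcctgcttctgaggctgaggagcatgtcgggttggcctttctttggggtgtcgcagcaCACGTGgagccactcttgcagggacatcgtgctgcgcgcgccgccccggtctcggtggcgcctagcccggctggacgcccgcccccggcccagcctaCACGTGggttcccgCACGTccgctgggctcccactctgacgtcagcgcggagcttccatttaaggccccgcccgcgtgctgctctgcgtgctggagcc
Ldhb: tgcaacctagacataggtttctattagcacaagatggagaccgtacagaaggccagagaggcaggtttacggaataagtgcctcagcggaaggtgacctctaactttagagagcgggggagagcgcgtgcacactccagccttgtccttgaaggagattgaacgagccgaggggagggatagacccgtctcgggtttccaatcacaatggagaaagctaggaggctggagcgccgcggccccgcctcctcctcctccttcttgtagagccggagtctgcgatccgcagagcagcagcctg
Aldoa: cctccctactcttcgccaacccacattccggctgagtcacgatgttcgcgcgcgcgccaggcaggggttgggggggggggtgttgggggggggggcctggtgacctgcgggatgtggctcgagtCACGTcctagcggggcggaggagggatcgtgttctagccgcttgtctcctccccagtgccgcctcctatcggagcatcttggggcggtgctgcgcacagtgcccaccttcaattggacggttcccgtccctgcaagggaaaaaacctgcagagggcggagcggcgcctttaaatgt

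In the Ldha window, CACGTG stands 145 and 48 bases before the start, and ACGTG once more at 34 bases before it, in reverse. The Aldoa window holds ACGTG in reverse 126 bases before the start, and a second, overlapping Aldoa window holds the same match. The window of another Aldoa start, farther upstream, holds none of the letter strings. In the Ldhb window none of the 3 letter strings occurs, which says only that these letters are not in these 300 bases. All 10 genes matched a window, 16 windows in all, since Eno1, Aldoa, Ldha and Pkm have several starts. ACGTG occurred in a window of 5 of 10 genes (Hk2, Aldoa, Pkm, Ldha and Slc16a3), against 21.8% of 27025 genes with windows. CACGTG occurred in 1 of 10 (Ldha), against 8.09%, and CTTTGA in 2 of 10 (Pfkp and a second start of Ldha), against 18.2%. The letters GGGCGG of a GC box occurred in 9 of 10, all but Ldhb, against 38.2%. These shares by gene depend on how many windows a gene has. By window, ACGTG occurred in 6 of 16, CACGTG in 1, CTTTGA in 2 and GGGCGG in 11. Over all 32851 windows the shares were 19.6, 7.15, 16 and 35.7%. Of the 5 genes with ACGTG, Aldoa, Pkm and Ldha rose and Hk2 and Slc16a3 did not pass. Of the genes without it, Pfkl and Tpi1 rose, Ldhb fell, and Pfkp and Eno1 did not pass. The matches are descriptions of sequence and not sites of binding.

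Lactate export was read from Slc16a3, the carrier MCT4 of highly glycolytic cells (ENSMUSG00000025161, chromosome 11, 120948480 to 120960868, plus strand). It was low, with 2.92, 2.55, 3.01, 2.84 and 3.22 CPM in the controls and 3.50, 3.28, 3.23, 2.46 and 3.01 CPM in the knockouts, on 37 to 61 counts per library. The groups overlapped, and the log2 fold change of 0.09 had a 95% interval from -0.22 to 0.41 (adjusted p = 0.70). Other carriers were more abundant. Slc16a1, which encodes MCT1, rose from 131 ± 9.52 to 178 ± 20.9 CPM, or by 0.44 on the log2 scale (SE 0.0838, adjusted p = 0.010). Slc16a7, which encodes the high-affinity carrier MCT2, fell from 56.5 ± 5.17 to 41.5 ± 3.78 CPM (-0.45, SE 0.0800, adjusted p = 0.0084). For both, no control library overlapped a knockout library, and both calls were held in all 10 fits that left out 1 library. Both ended with the TEC and intronic score, described below, as a covariate (0.30 for Slc16a1 and -0.32 for Slc16a7, adjusted p = 0.43 and 0.39). Among the 3 carriers, Slc16a1 held 84.7% ± 1.38 of the CPM per kb in the controls and 90.7% ± 0.672 in the knockouts, with ranges apart. Slc16a7 held between 11.2 and 14.8% in the controls and between 7.33 and 8.78% in the knockouts, and Slc16a3 at most 1.74% in any library.

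The helper proteins of these carriers differed from each other. Emb, for embigin, which brings monocarboxylate carriers to the cell surface, had 32.6, 35.5, 34.1, 38.7 and 48.5 CPM in the controls and 52.3, 52.0, 57.1, 71.5 and 66.9 CPM in the knockouts. All knockouts were above all controls, and Emb rose by 0.66 on the log2 scale (SE 0.120, adjusted p = 0.0088), also in all 10 fits that left out 1 library. With the TEC and intronic score its log2 fold change was 0.41 and did not pass (adjusted p = 0.42). Bsg, for basigin, the partner of MCT1 and MCT4, stood at 245 ± 12.7 and 255 ± 16.5 CPM (0.06, 95% interval -0.08 to 0.20, adjusted p = 0.55). Hcar1, the lactate receptor through which lactate restrains fat breakdown, stood at 41.2 ± 7.35 and 33.1 ± 6.40 CPM (-0.32, 95% interval -0.62 to -0.01, adjusted p = 0.15).

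In the list of 20 other lactate and pyruvate genes, which also held the mitochondrial pyruvate carrier, the pyruvate dehydrogenase complex and its kinases and phosphatases, 18 were tested. Slc16a1 and Emb were higher, Slc16a7 was lower and 15 did not pass (median log2 fold change 0.05, beside 0.00018 over all tested genes), against 5.84% higher and 7.05% lower over all tested genes. DESeq2 called 4 higher and 1 lower, against 8.31% and 7.42%. With the TEC and intronic score edgeR called 0 of the 18 in either direction, against 0.0691% higher and 0.239% lower over all tested genes. In that fit 4 of the 18 had an unadjusted p below 0.05. Without knockout 1 or without knockout 4, edgeR called 3 higher, against 6.97% and 5.15% of the genes tested in those fits.

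Of 28 other glycolysis genes 21 were tested, and 0 were higher, 2 were lower and 19 did not pass by edgeR (median log2 fold change -0.04), shares near the 5.84% higher and 7.05% lower over all tested genes. At an unadjusted p below 0.05, 1 was higher and 3 were lower, and DESeq2 and limma-voom each called 0 higher and 2 lower, against 7.42% lower over all genes for DESeq2 and 5.53% for limma-voom. The lower genes were Slc2a4, the insulin-responsive glucose transporter, at 77.0 ± 7.05 and 52.5 ± 4.99 CPM (-0.55, SE 0.0808, adjusted p = 0.0030), and Adpgk. For Slc2a4 no control library overlapped a knockout library, and the call was held in all 10 fits that left out 1 library. Adpgk, whose enzyme phosphorylates glucose with ADP, fell from 32.5 ± 3.04 to 26.3 ± 2.37 CPM (-0.31, SE 0.0818, adjusted p = 0.032), and of the 10 fits that left out 1 library only those without control 5 or without knockout 1 held this call. With the TEC and intronic score described below as a covariate, neither was called (adjusted p = 0.15 for Slc2a4 and 0.67 for Adpgk). The log2 fold change of Slc2a4 was then -0.55, as without the score, and that of Adpgk was -0.15.

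The remaining named genes of this list did not pass. Gapdh, for the dehydrogenase of the triose phase, stood at 463 ± 31.8 and 521 ± 36.4 CPM (0.17, 95% interval 0.02 to 0.32, adjusted p = 0.12). Pgk1, for the kinase that makes the first ATP of the pathway, stood at 153 ± 8.22 and 167 ± 17.0 CPM (0.12, 95% interval -0.04 to 0.28, adjusted p = 0.28). The ubiquitous glucose transporter gene Slc2a1 was at 9.27 ± 0.903 and 8.36 ± 1.52 CPM (adjusted p = 0.47). Hk1 (34.6 ± 3.18 and 33.6 ± 3.07 CPM, adjusted p = 0.75) and the muscle-type phosphofructokinase gene Pfkm (18.2 to 27.9 and 15.9 to 24.5 CPM, adjusted p = 0.75) did not pass either.

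**Figure D3:**
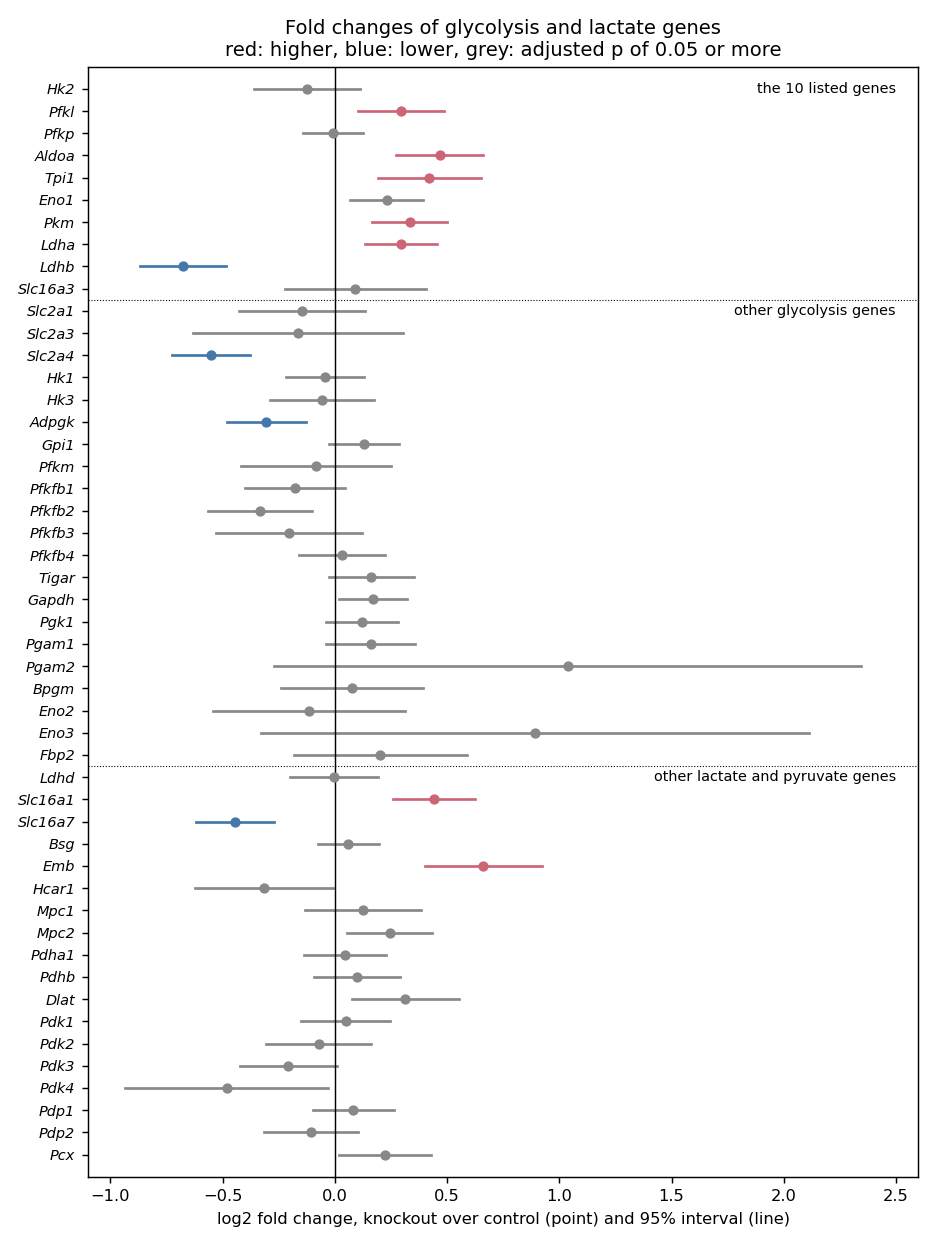
Log2 fold change of knockout over control with its 95% interval for the 10 listed genes, 21 other glycolysis genes and 18 other lactate and pyruvate genes that were tested (red higher, blue lower, grey not passed). Among the 10, 5 were higher and Ldhb, at -0.68, was lower, and the widest intervals belong to Pgam2 and Eno3.

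Of 15 genes for regulators of the pathway, all tested, 12 did not pass, while 2 passed as higher and 1 as lower, against 5.84% and 7.05% over all tested genes (median log2 fold change 0.06). Egln3, an oxygen-sensing prolyl hydroxylase, rose from 1.91 ± 0.488 to 4.66 ± 1.41 CPM (1.28, SE 0.245, adjusted p = 0.011). Vhl, which marks hydroxylated hypoxia-inducible factor for breakdown, rose from 71.5 ± 13.7 to 96.6 ± 6.10 CPM (0.43, SE 0.111, adjusted p = 0.027). Arnt, the partner subunit of that factor, fell from 64.2 ± 3.57 to 53.0 ± 4.50 CPM (-0.28, SE 0.0683, adjusted p = 0.024). Hif1a, its oxygen-regulated subunit, stood at 233 ± 30.8 and 287 ± 29.3 CPM (0.30, 95% interval 0.09 to 0.50, adjusted p = 0.058). DESeq2 gave Hif1a an adjusted p of 0.024, and edgeR without control 5 or without knockout 1 called it as well (adjusted p = 0.012 and 0.038). With the TEC and intronic score its log2 fold change was -0.01 (adjusted p = 0.97, edgeR). Vhl was lost without control 1, 2 or 4 or knockout 2, 3 or 5, and Arnt without control 1 or 2 or knockout 2 or 5. The muscle score, also described below, ended the calls of Vhl and Arnt (adjusted p = 0.077 and 0.070). With the TEC and intronic score 0 of the 15 were called by edgeR, against 0.0691% higher and 0.239% lower over all tested genes. In that fit 1 of the 15 had an unadjusted p below 0.05. The log2 fold changes of Egln3, Vhl and Arnt were then 0.72, 0.18 and -0.24 (adjusted p = 0.48, 0.68 and 0.46).

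Within the groups, 5 of the 10 genes moved together from library to library. After each group was centred on its own mean log2 CPM, Pearson's r over the 10 libraries was between 0.807 and 0.954 for the pairs among Pfkl, Aldoa, Tpi1, Eno1 and Ldha, which were singled out after the values were seen. Pfkp had r between -0.35 and 0.24 with every other member, and Ldhb between -0.30 and 0.43. The genes nearest to Aldoa by this measure, among 9909 genes of sufficient level, were Usp46 (r = 0.973), Reep5 (0.972) and Mmadhc (0.970). Those nearest to Ldhb were Dirc2 (0.930), Cnksr3 (0.919) and Tacc1 (0.912), and those nearest to Slc16a3 were Ythdf1 (0.967), Gramd3 (0.961) and Zfp598 (0.945). These values are descriptions over 10 libraries that share depth, tissue make-up and RNA handling.

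Skeletal muscle, whose cells are rich in glycolytic enzymes, left markers in some libraries. Of 14 muscle markers 11 were tested, and Tnnc2 had 0 counts in every library. In either direction 0 of the 11 were called, against 5.84% higher and 7.05% lower over all tested genes. All 11 log2 fold changes were above 0, with a median of 1.44. The summed level of the 14 markers was 71.1, 70.6, 70.4, 130 and 643 CPM in the controls. In the knockouts it was 904, 170, 715, 75.5 and 81.5 CPM. Within the groups, Pearson's r with the mean log2 CPM of these markers, over the 10 libraries, was 0.72 for Slc16a3, 0.55 for Pfkp, -0.15 for Aldoa, -0.35 for Tpi1 and -0.57 for Ldhb. The part of muscle in the results was not tested beyond the following fit. With that mean as a covariate, the muscle score, 2 of the 10 genes were higher (Aldoa at 0.48 and Tpi1 at 0.47, adjusted p = 0.025 and 0.040) and Ldhb was lower (-0.61, adjusted p = 0.0053), against 2.03% higher and 2.12% lower over all tested genes. Pkm, Ldha and Pfkl then had log2 fold changes of 0.32, 0.31 and 0.34, near those without the score, and adjusted p of 0.056, 0.055 and 0.064.

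Markers of other cells were compared in the same way, against 5.84% of all tested genes called higher and 7.05% lower. The 9 markers of T and B cells summed to between 12.0 and 22.9 CPM in the controls and between 20.7 and 256 CPM in the knockouts, the highest in knockout 1, with 5 of 9 called higher. The 8 endothelial markers summed to between 937 and 1175 CPM in the controls and between 772 and 884 CPM in the knockouts, with 7 of 8 called lower. The 8 macrophage markers, at 2204 to 2905 and 2339 to 2633 CPM, had 0 called in either direction. The part of these cells in the results was not tested. Without control 5 and knockout 1 together, 6 of the 10 genes were higher and 1 lower, Eno1 being the added one, against 11.1% higher over all tested genes.

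A library measure that followed the groups more closely was the level of loci of the GENCODE classes TEC, mostly unspliced transcript clusters, and sense intronic, of which 786 were tested. Their mean log2 CPM was 1.08, 1.27, 0.73, 1.20 and 0.38 in the controls. It was 0.44, 0.22, 0.46, 0.36 and 0.06 in the knockouts, so control 5 lay inside the knockout range. Pearson's r with genotype over the 10 libraries was -0.77 for this score and 0.41 for the muscle score. A fit that holds both this score and genotype therefore estimates the difference between genotypes less precisely. Within the groups, Pkm had r = -0.91 with this score over the 10 libraries, Eno1 -0.68 and Aldoa -0.64, while Hk2 had 0.08. With the score as a covariate, a model chosen after the data were seen, Ldhb was still lower (log2 fold change -0.75, adjusted p = 0.043), and 0 of the 10 genes were higher by edgeR, 1 of them at an unadjusted p below 0.05. Over all tested genes this model called 0.0691% higher and 0.239% lower. The log2 fold changes of Aldoa, Tpi1 and Pkm were 0.27, 0.27 and 0.11 in it (adjusted p = 0.47, 0.60 and 0.66), and the part of what this score measures in their rise was not tested.

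**Figure D4:**
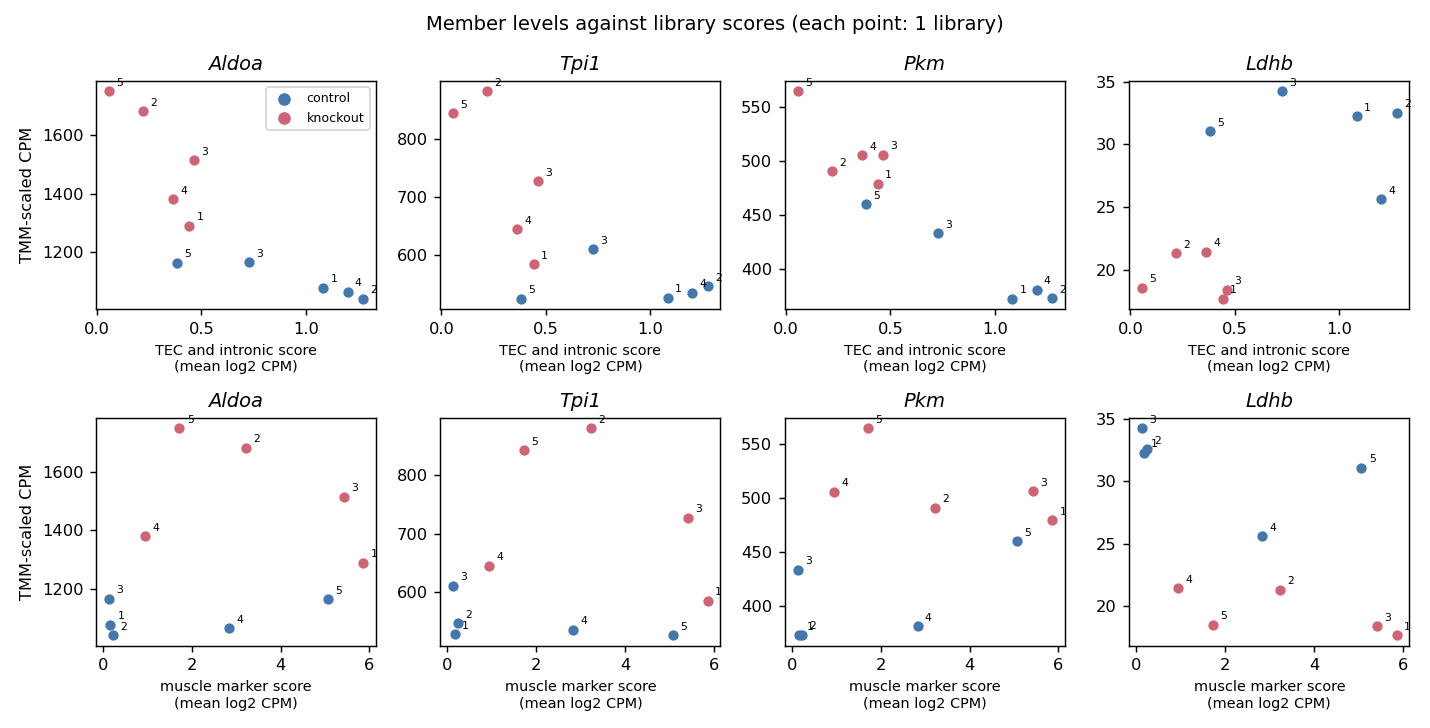
TMM-scaled CPM of Aldoa, Tpi1, Pkm and Ldhb (vertical axes, not starting at 0) against the TEC and intronic score (top) and the muscle marker score (bottom), each point a library numbered by replicate, control blue and knockout red. Pkm declines across libraries as the TEC and intronic score grows, while Ldhb stays at or above 25.6 CPM in all controls, including control 5, and at or below 21.4 CPM in all knockouts.

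Copies of these genes could take reads from them. Transcripts of other genes with at least 90% identity over at least 300 bases were found for Aldoa, Tpi1, Eno1, Pkm, Ldha and Ldhb, with 10 for Ldha and 6 for Pkm. Nearly all were pseudogenes or other genes not annotated as protein-coding. Their counts summed to between 0 and 0.369% of the count of the gene in any library. For Pfkp the match was Pitrm1, a neighbour on the other strand that covers 5.58% of the exonic bases of Pfkp and whose count was between 52.6 and 69.4% of that of Pfkp. The sources used here do not say how the counting treated reads with several matches or reads of either strand.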

How the data were processed

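The authors deposited 1 table of raw read counts, as whole numbers for each gene in each of 10 libraries. Libraries were made with a strand-marking total RNA kit after ribosomal RNA depletion, per the labels' protocols. STAR 2.5.2b, featureCounts 1.5.1, DESeq2 1.16.0 and GRCm38 are named per the submitters' processing notes, and the sources used here do not give the annotation release. Symbols, positions and exon lengths came from GENCODE M21 (52489 of 52636 identifiers matched).

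A filter on low counts (filterByExpr) left 15927 genes. These were scaled with TMM and compared between genotypes, without covariates, by the quasi-likelihood test in edgeR 4.0.16 (R 4.3.3), and p-values were adjusted over all of them (Benjamini-Hochberg). The script was tested on simulated data. Alternatives were RLE and upper quartile scaling, DESeq2 1.42.0, limma-voom (limma 3.58.1), no low-count filter, left-out libraries, a muscle score and, added after the data were seen, a TEC and intronic score as covariates. All 20 pairs of libraries within the groups differed by more than sampling noise (chi-square per degree of freedom 6.57 to 26.2). Intervals and floors cover counting error and spread only, since PCR copies are not independent molecules.

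The members and lists were chosen with earlier results of these data known. Named genes are the 10 listed genes, Tcf7l2, every called gene of the other pathway and regulator lists, Slc2a1, Hk1, Pfkm, Gapdh, Pgk1, Slc16a1, Bsg, Hcar1 and Hif1a, and the 3 genes of highest centred correlation with Aldoa, Ldhb and Slc16a3 among those whose average log2 CPM reached 3 and whose symbol is no Gm number or Rik clone.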

Additional observations from a re-analysis of the deposited data

Results flagged for a closer look

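In 54 groups of 5 libraries, 27 genes in 2 genotypes, 2 held a library farther from the others than the usual limit for such a group, and chance alone marks about 1 group in 20. Both were control 3, with 611 CPM of Tpi1 (gap of 75.2% of the group's range) and 830 CPM of Ldha (gap of 77.0%). Control 3 was the highest control for both genes. Without it, the log2 fold changes were 0.47 for Tpi1 and 0.33 for Ldha, and both stayed called (adjusted p = 0.032 for each).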

How the results depend on the processing

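No paired analysis was possible because the labels give no replicate numbers shared by the groups. The count of higher genes among the 10 was 5. It was 2 with the muscle score as a covariate and 0 with the TEC and intronic score. Between 1 and 6 were higher when 1 library was left out. The count of lower genes was 1, Ldhb, under every alternative run. Over all tested genes 2053 were called, 661 with the muscle score, 49 with the TEC and intronic score, 3774 without control 5 and knockout 1, and 537 to 3094 when 1 library was left out. Of the other glycolysis genes 2 were called, 1 with the muscle score, 0 with the TEC and intronic score (2 at an unadjusted p below 0.05), 4 without control 5 and knockout 1, and 1 to 3 when 1 library was left out. The cause of these shifts was not tested. For 27 named genes (those named for their correlation were not refitted), 417 of 486 alternative values kept the direction of a called change and the side of the threshold, 60 lost a call and 9 gained one, and 0 reversed. Calls near 0.05, such as those of Pfkl and Eno1, depend on the tool. Slc16a3 rests on 37 to 61 counts per library.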

Other observations

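Muscle isoforms of glycolytic enzymes, which were looked up after the data were seen, followed the muscle markers from library to library. Eno3, the muscle enolase gene, had 18.1 CPM in control 5, 34.4 CPM in knockout 1 and 19.9 CPM in knockout 3, and between 4.29 and 6.93 CPM in the other 7 libraries. Pgam2, the muscle phosphoglycerate mutase gene, had 3.81, 9.54 and 3.83 CPM in the same 3 libraries and between 0.984 and 1.39 CPM in the others. Neither passed between the groups (adjusted p = 0.30 and 0.26, edgeR). Eno1 held at least 93.5% of the CPM per kb of the 3 enolase genes in those 7 libraries and 87.0, 78.0 and 87.3% in control 5, knockout 1 and knockout 3.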
